A study of Homo sapiens with 15 samples.

Results

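A set of 8 genes that other studies have reported as targets of the miR-181 family was followed in A549 cells after transfection with miR-181d or its inhibitor. The genes were MGMT, BCL2, MCL1, TIMP3, NLK, GATA6, ATM and PLAG1. They were found by gene name on a whole human genome oligonucleotide array, where they held 13 probes of 41000, for 8 of 30484 gene names. A549 is an established line from a human lung adenocarcinoma. The series has 15 dual-color arrays, with 3 arrays per miRNA: miR-181d, on which the results below turn, and for comparison miR-766, miR-565, miR-629* and miR-574-3p. On each array, RNA from cells overexpressing the miRNA from a synthetic precursor oligonucleotide was labeled with Cy5, and RNA from cells given the antagomir of the same miRNA was labeled with Cy3 (called suppressed cells here). Both oligonucleotides were given at 20 nM, and RNA was taken 24 h after transfection. The dyes were not swapped, so a ratio on 1 array holds treatment and dye together, and no array of untransfected cells was analysed here. The level of miR-181d itself is not measured by these arrays of mRNA.

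The miR-181 family is a group of small regulatory RNAs with a common seed, the stretch near the 5′ end that pairs with sites in target mRNAs. Pairing lowers the amount of the mRNA, its translation, or both, and an array of mRNA reads only the first of these. The family is known from lymphocyte development, from differentiation and from the control of apoptosis and drug response in tumor cells. The mature sequences of the 4 human members are shown because the family is defined by its shared seed, which is in capitals (bases 2 to 8, RefSeq, 5′ to 3′).
hsa-miR-181d-5p: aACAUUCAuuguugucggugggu
hsa-miR-181a-5p: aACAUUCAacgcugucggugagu
hsa-miR-181b-5p: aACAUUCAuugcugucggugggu
hsa-miR-181c-5p: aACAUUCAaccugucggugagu
Of the comparison miRNAs, the mature forms of 2 are shown to set their seeds beside that of miR-181d.
hsa-miR-574-3p: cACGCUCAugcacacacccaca
hsa-miR-629-3p: gUUCUCCCaacguaagcccagc
The latter is the current RefSeq name taken here for miR-629*. The DNA letters that pair with the miR-181 seed are TGAATGT, whereas those of miR-574-3p are TGAGCGT and those of miR-629-3p are GGGAGAA.

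Of the 13 probes, 11 (7 of the 8 genes) were well above background in at least 1 channel on at least 3 arrays and were tested among 31345 such probes. The TIMP3 probe and 1 of the 3 ATM probes (A_24_P103944) were not well above background in either channel on any of the 15 arrays. TIMP3, an inhibitor of matrix metalloproteinases, had overexpressing-cell signals of 1.19 to 4.21 and suppressed-cell signals of 1.24 to 2.45 over the 15 arrays, so that no ratio is given for it. None of the 13 probes held TGAATGT within its 60 bases, and a probe reports on the transcripts that hold its sequence, not on the site. The miR-565 array 1 stood apart from the other 14: the SD of its log2 ratio over bright probes was 0.7723, against 0.1735 to 0.3423 elsewhere, and its median correlation with the other arrays was 0.11, against 0.22 to 0.51. It also was the only array of another miRNA on the slide that held the 3 miR-181d arrays. Several results are therefore also given without it. The 5 epithelial markers listed for the check of the cell line (KRT8, KRT18, KRT19, CDH1, EPCAM) were well above background on all 15 arrays, as were the 4 genes that A549 is known to express highly (AKR1B10, AKR1C1, NQO1, ALDH3A1). Of the 7 markers of leukocytes, fibroblasts and endothelium that were used, 5 were not well above background on any array, namely PTPRC, COL3A1, PDGFRB, PECAM1 and CDH5. The other two, CD3E and COL1A1, were so on all 15 arrays, with overexpressing-cell signals of 20.4 to 57.4 and 29.9 to 57.6. The lung markers NKX2-1 and SFTPC were well above background on all 15 arrays and SFTPB on 11. The probe named CDKN2A, a gene known to be deleted in A549, was well above background on all 15 arrays with overexpressing-cell signals of 301 to 555. Nothing in the labels says that the 3 arrays of a miRNA came from separate transfections. SEs and p-values of the main fit measure the spread between arrays of a miRNA, pooled over the 5 miRNAs. That spread may be technical, and the pool holds miR-565 array 1. In bulk RNA, fewer cells with a transcript and less transcript per cell cannot be told apart.

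No reported target was called lower in cells overexpressing miR-181d than in cells given its antagomir. At a Benjamini-Hochberg adjusted p under 0.05 in limma, 0 of the 11 target probes had a lower log2 ratio (overexpressing over suppressed), where 2.81% of all tested probes did. At an unadjusted p under 0.05, 3 of the 11 differed from 0, all of them higher, where 22.1% of all tested probes differed in either direction. Of these, 2, for GATA6 and for BCL2 (A_23_P352266), passed the adjusted threshold, where 3.52% of all probes were called higher (6.32% in either direction). The median estimate of the 11 probes was -0.03, against 0.012 over all tested probes. Only 1 target probe, the MCL1 probe A_24_P336759, was below 0 on all 3 miR-181d arrays, where 24.9% of all probes were. There were 3 target probes above 0 on all 3 arrays, where 29.7% of all probes were. The study's methods used a ratio under 0.5, a p of at most 0.001 and a suppressed-cell signal of at least 20. These limits were applied here with the fitted ratio and its unadjusted limma p, not with the p of the study's software. Under them 4 probes of 31345 (0.0128%) were called lower, and none was a reported target. Leaving out miR-565 array 1 lifted the probes called in all from 1982 to 8735 (27.9% of those tested) and kept the lower target probes at 0, while the higher ones became 3. With the slide as a fixed block, a fit that rests on that array, 3 target probes were lower and 3 higher, where 48.3% of all probes were called.

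**Figure D1:**
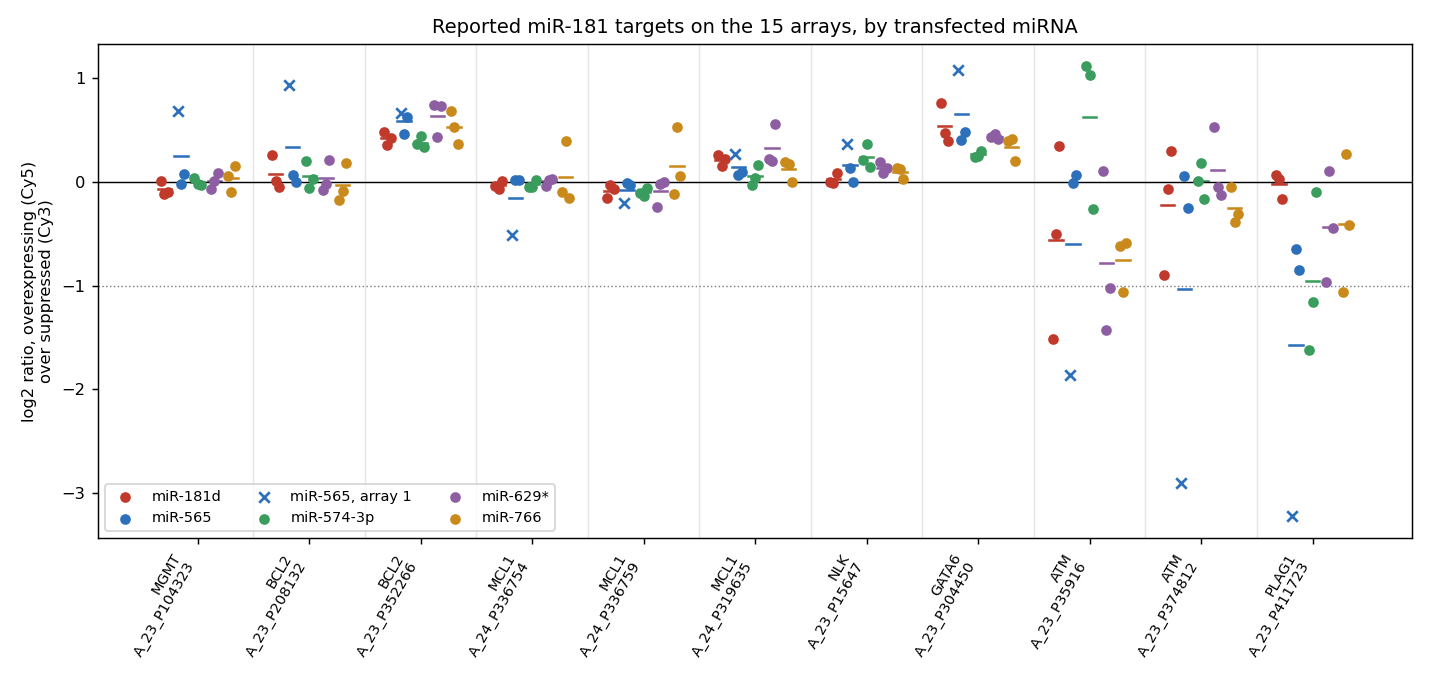
Log2 ratio of overexpressing (Cy5) over suppressed (Cy3) cells for the 11 measured target probes on all 15 arrays. Points are arrays, short lines are means of 3 arrays, the cross is miR-565 array 1, and the dotted line marks a halving. For GATA6 and BCL2 A_23_P352266 all 15 arrays lay above 0. ATM A_23_P35916 ran from -1.86 to 1.11.

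Comparison with the other miRNAs removes a dye effect that all arrays share. The difference between the miR-181d ratio and the average of the other 4 miRNAs was called for 0 of the 11 target probes and for 0% of all tested probes in limma. At an unadjusted p under 0.05, 0 of the target probes and 2231 of all probes (7.12%) differed. Estimates for the targets were below 0 for 6 probes and above 0 for 5, with a median of -0.03 against -0.009 over all probes. No target had miR-181d ratios that all lay below those of the 12 other arrays, a pattern that 0.855% of all probes showed. None lay wholly above them either, where 0.613% of all probes did. The 95% interval of this difference lay wholly above a halving for 10 of the 11 probes, the exception being ATM A_23_P35916. For MGMT, BCL2, MCL1, NLK and GATA6, the lowest bound was -0.39 on the log2 scale. Without miR-565 array 1, 143 of all probes (0.456%) and 0 target probes were called, and the lowest bound of these 5 genes was -0.32. These bounds belong to these fits, which leave the slide out and compare with all 4 other miRNAs. With miR-565 as the only other miRNA, lower bounds reached -0.88 for these genes (BCL2 A_23_P208132) and -1.05 for ATM A_23_P374812. With the slide as a fixed block, a fit that rests on miR-565 array 1, differences for these genes were not all above -0.39. They ran from -0.89 (BCL2 A_23_P208132) to 0.53 (MCL1 A_24_P336754).

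**Figure D2:**
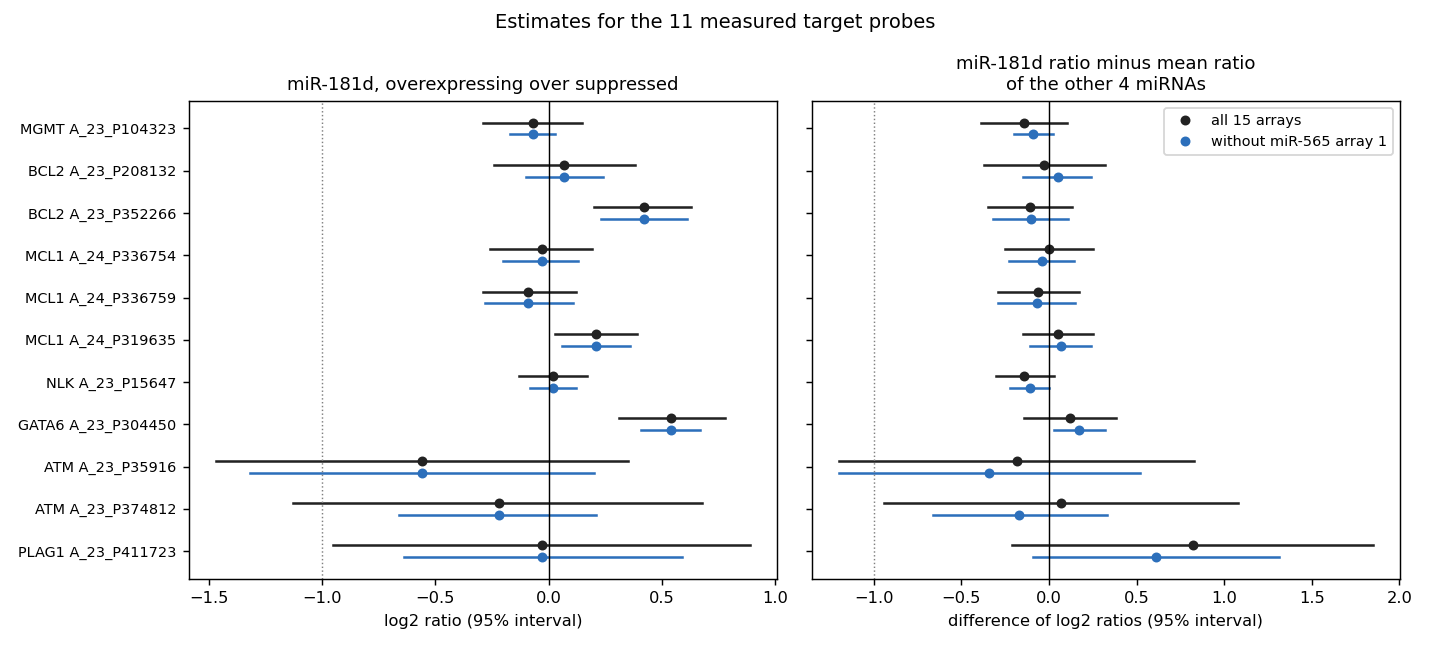
Estimates with 95% intervals from limma for the 11 measured target probes, with all 15 arrays (black) and without miR-565 array 1 (blue). The left panel shows the miR-181d log2 ratio, and the right panel shows that ratio minus the mean ratio of the other 4 miRNAs; the dotted line marks a halving. On the left the black intervals of GATA6, BCL2 A_23_P352266 and MCL1 A_24_P319635 lay above 0, the last not past the adjusted threshold. On the right no black interval lay wholly on one side of 0.

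BCL2, the founding inhibitor of apoptosis, was read by 2 probes that differed from each other. They are annotated to different transcript records, and whether they read the same transcripts was not tested. The position given for the first is shorter than its 60 bases. The probe A_23_P208132 (NCBI36 chr18:59136115-59136150, minus strand) had log2 ratios of 0.26, 0.01 and -0.05 on miR-181d arrays 1, 2 and 3. On these arrays its overexpressing-cell signals were 765, 564 and 577, and its suppressed-cell signals were 638, 561 and 598. The ratios straddled 0. Those of the other 12 arrays ran from -0.18 to 0.93 with a median of 0.02. Their highest, 0.93, was miR-565 array 1, and the next was 0.21, below the 0.26 of miR-181d array 1. The fitted ratio was 0.07 (SE 0.14, n = 3, limma adjusted p = 0.827).

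The other BCL2 probe, A_23_P352266 (NCBI36 chr18:58941703-58941762, minus strand), is printed 10 times on each array. Its log2 ratios on the miR-181d arrays were 0.48, 0.35 and 0.42. All 3 were above 0, and so were those of the 12 other arrays, from 0.33 to 0.74 with a median of 0.50. The fitted miR-181d ratio was 0.42 (SE 0.10, n = 3, limma adjusted p = 0.0287), or 1.33-fold. This probe was also called higher for each of the other miRNAs, at 0.58 for miR-565, 0.38 for miR-574-3p, 0.63 for miR-629* and 0.53 for miR-766 (limma adjusted p of 0.00379 to 0.0466). For these miRNAs 12.9%, 5.37%, 10.2% and 2.24% of all probes were called in either direction. Against those miRNAs the miR-181d ratio differed by -0.11 (95% interval -0.35 to 0.13, limma adjusted p = 0.858). The call against 0 was lost without any 1 of the 3 miR-181d arrays, with adjusted p values of 0.0968 to 0.209 and ratios of 0.38 to 0.45. It was also lost in limma with the slide as a fixed block (0.31, adjusted p = 0.151) or a random block (0.36, adjusted p = 0.214). A limma fit of only the 3 miR-181d arrays lost it too (adjusted p = 0.0736). The call was kept in limma without miR-565 array 1 (adjusted p = 0.0043) and with median centering of the arrays (adjusted p = 0.00964). Over the 15 arrays the ratios of the BCL2 probes correlated at 0.15, and at -0.25 without miR-565 array 1.

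MCL1, a short-lived inhibitor of apoptosis of the same family, was read by 3 probes. The brightest, A_24_P336754 (NCBI36 chr1:148813852-148813911, minus strand), had log2 ratios of -0.04, -0.07 and 0.01 on the miR-181d arrays. Its overexpressing-cell signals there were 10758, 11250 and 12526, and its suppressed-cell signals were 11029, 11842 and 12440. The channels were close on each array, and the fitted ratio was -0.03 (95% interval -0.26 to 0.19). The miR-181d ratio differed from that of the other miRNAs by 0.00 (95% interval -0.25 to 0.25).
The second probe, A_24_P336759 (chr1:148814246-148814305), had log2 ratios of -0.16, -0.03 and -0.07. These lay below 0, as did 9 of the 12 other arrays, and the fitted ratio was -0.09 (SE 0.095, limma adjusted p = 0.652). The third, A_24_P319635 (chr1:148817362-148817421), had ratios of 0.26, 0.15 and 0.22 and was above 0 on 14 of the 15 arrays. Its fitted ratio of 0.21 (SE 0.083) had an adjusted p of 0.153 in limma, which became 0.0407 without miR-565 array 1. The first and second probes moved alike over the 15 arrays (r = 0.73), while neither moved with the third (r = -0.01 and -0.04).

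ATM, the kinase that signals DNA double-strand breaks, varied widely between arrays of the same miRNA. The bright probe A_23_P35916 (NCBI36 chr11:107741295-107741354) and the dimmer probe A_23_P374812 (chr11:107664947-107665006) are shown because their ratios had the largest spread of the tested target probes over the 3 miR-181d arrays.
A_23_P35916: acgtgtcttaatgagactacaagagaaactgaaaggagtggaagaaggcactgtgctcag
A_23_P374812: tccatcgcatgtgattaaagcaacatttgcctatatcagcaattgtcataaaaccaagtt
The first probe had log2 ratios of -1.52, -0.50 and 0.34 on the miR-181d arrays. Its overexpressing-cell signals were 33.8, 92.3 and 122, whereas its suppressed-cell signals were 96.7, 131 and 96.3. The overexpressing cells of array 1 were low, and those of array 3 were above the suppressed cells.
On the other arrays the ratio ran from -1.86 (miR-565 array 1) to 1.11 (miR-574-3p array 1). The fitted miR-181d ratio was -0.56 (95% interval -1.47 to 0.35, limma adjusted p = 0.478), and it differed from that of the other miRNAs by -0.18 (95% interval -1.20 to 0.83). These intervals hold a halving as well as no change, as did that of the ratio without miR-565 array 1 (-1.32 to 0.20).

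The ATM ratio differed more between arrays than between the spots of an array. The probe is printed 10 times, and 7 to 10 spots per array were left after outliers were removed. The SD between the spots of 1 array was 0.049 to 0.17, with a median of 0.10, while the SD between the 15 arrays was 0.88 and that between the 3 miR-181d arrays was 0.93. For the BCL2 probe with 10 spots, the median SD between spots was also 0.10, and the SD between the 15 arrays was 0.14. The spread of the ATM probe over the arrays was larger than that of 96.5% of all tested probes.

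**Figure D3:**
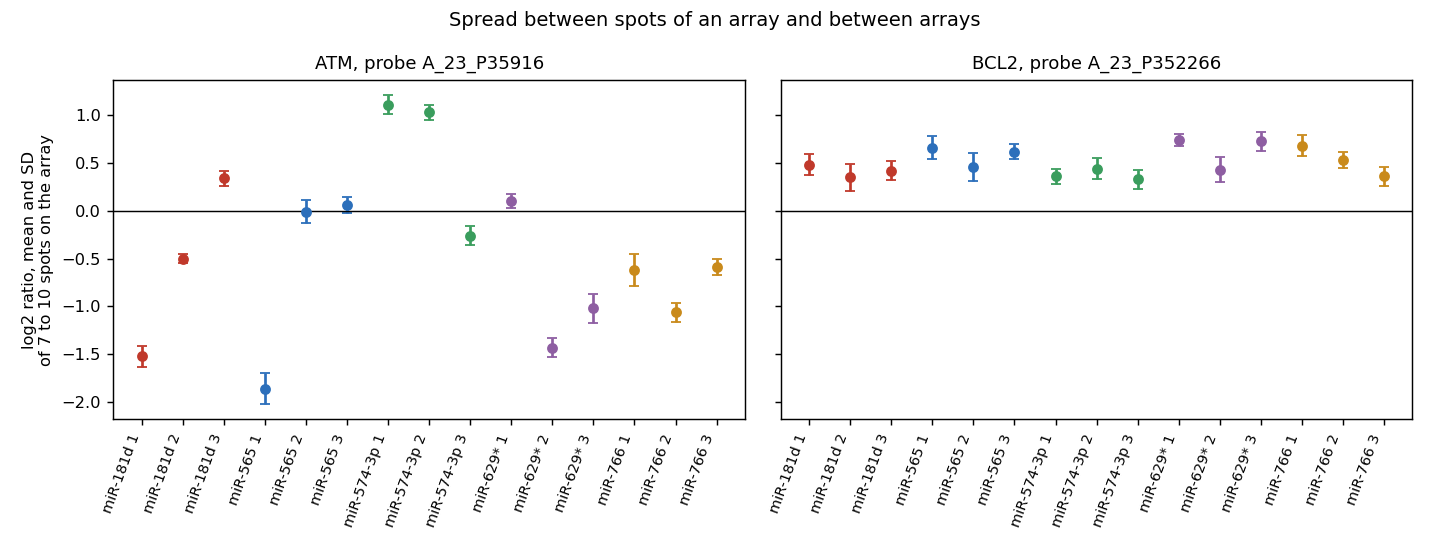
Log2 ratio (overexpressing over suppressed) of the 2 target probes with 10 spots, on each of the 15 arrays. Points are means over the 7 to 10 spots kept, bars are the SD between spots of the array, and colors mark the miRNA. The ATM means of the 3 miR-181d arrays (-1.52, -0.50 and 0.34) lay outside each other's bars, while some arrays of other miRNAs lay close together, such as miR-574-3p arrays 1 and 2 (1.11 and 1.03). BCL2 stayed between 0.33 and 0.74.

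The second ATM probe had log2 ratios of -0.90, -0.07 and 0.30 on the miR-181d arrays, in the same order as the first. Its overexpressing-cell signals were 15.5, 26.4 and 34.6, and its suppressed-cell signals were 28.8, 27.8 and 28.2. The suppressed cells were alike on the 3 arrays, and the overexpressing cells were not. The fitted ratio was -0.22 (95% interval -1.13 to 0.68), and its interval was -0.66 to 0.21 without miR-565 array 1. On that array the ratio of this probe was -2.9, with an overexpressing-cell signal of 2.77 that was not well above background. Over the 15 arrays the ATM probes correlated at 0.64, and at 0.62 without miR-565 array 1. The third ATM probe (A_24_P103944), with overexpressing-cell signals of 1.02 to 2.18, was not well above background on any array and gives no level. It was called lower where dim probes were not left out, and that call rests on signals at the floor.

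MGMT, which removes alkyl groups from guanine in DNA and thereby protects cells from temozolomide, had log2 ratios of 0.01, -0.12 and -0.10. The overexpressing-cell signals of its probe (A_23_P104323) were 963, 1007 and 1032, and the suppressed-cell signals were 955, 1096 and 1109. The 60 bases of the probe lie within NCBI36 chr10:131396272-131447489, an interval far longer than the probe, so its bases are not contiguous in the genome. It is shown as the sequence on which the MGMT values rest.
A_23_P104323: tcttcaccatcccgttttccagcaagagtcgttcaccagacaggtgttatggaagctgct
The ratios of miR-181d arrays 2 and 3 were at the low end of the 15 arrays, the other 12 running from -0.10 to 0.68 with a median of 0.03. The fitted ratio was -0.07 (SE 0.10, limma adjusted p = 0.745). The difference from the other miRNAs was -0.14 (95% interval -0.39 to 0.10, limma adjusted p = 0.824), and -0.09 (-0.20 to 0.02) without miR-565 array 1, whose ratio of 0.68 was the highest.

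NLK, a kinase that phosphorylates the TCF and LEF factors of Wnt signaling, had ratios close to 0 on the miR-181d arrays. Its probe (A_23_P15647, NCBI36 chr17:23545825-23545884) had log2 ratios of 0.00, -0.01 and 0.08. Overexpressing-cell signals were 376, 418 and 467, and suppressed-cell signals were 377, 422 and 441. The other 12 arrays ran from 0.00 to 0.36 with a median of 0.13, so the groups overlapped. The miR-181d ratio was lower than that of the other miRNAs by an estimate of -0.14 (95% interval -0.30 to 0.03, limma adjusted p = 0.747). Without miR-565 array 1 the estimate was -0.11 (-0.22 to 0, limma adjusted p = 0.327). In the suppressed cells the NLK signal was 0.12 higher on the log2 scale than in the suppressed cells of the other miRNAs (95% interval 0.03 to 0.21), with an adjusted p of 0.134 in limma. In the overexpressing cells the difference was -0.01 (95% interval -0.14 to 0.12).

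GATA6, a zinc finger transcription factor of endoderm and lung epithelium, had the highest ratio of the targets. Its probe (A_23_P304450, NCBI36 chr18:18035791-18035850) had log2 ratios of 0.76, 0.47 and 0.39 on the miR-181d arrays. Overexpressing-cell signals were 480, 427 and 454, against suppressed-cell signals of 284, 307 and 346. The overexpressing cells were higher on each of these arrays, and also on the 12 others, where the ratio ran from 0.20 to 1.08 with a median of 0.40. The 1.08 was miR-565 array 1, and the next highest of the 12 was 0.48. The fitted miR-181d ratio was 0.54 (SE 0.11, n = 3, limma adjusted p = 0.0141), or 1.46-fold. The other miRNAs had 0.65 (miR-565), 0.26 (miR-574-3p), 0.43 (miR-629*) and 0.33 (miR-766), and of these miR-565 and miR-629* were called higher in limma. The miR-181d ratio differed from their mean by 0.12 (95% interval -0.14 to 0.38, limma adjusted p = 0.860), and by 0.17 (0.03 to 0.32, limma adjusted p = 0.250) without miR-565 array 1. The call against 0 was lost without miR-181d array 1 (0.43, limma adjusted p = 0.166) and without array 2 (0.57, limma adjusted p = 0.0644). It was also lost in limma with the slide as a fixed block (0.13, adjusted p = 0.391) or a random block (0.29, adjusted p = 0.243). The call was kept in limma without miR-565 array 1 (adjusted p = 9.19e-05) and with median centering of the arrays (adjusted p = 0.00311). Ratios above 0 on all 15 arrays, as for GATA6 and BCL2 A_23_P352266, were found for 1753 probes (5.59% of those tested).

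PLAG1, a zinc finger transcription factor that drives growth genes such as IGF2, had log2 ratios of 0.06, 0.03 and -0.17. Overexpressing-cell signals of its probe (A_23_P411723) were 43.1, 36.2 and 50.2, and suppressed-cell signals were 41.5, 35.4 and 56.3. The miR-181d arrays were thus close to 0, while 10 of the 12 other arrays were below 0, from -3.22 to 0.27 with a median of -0.75. The lowest was miR-565 array 1, on which the overexpressing channel was not well above background. The difference of miR-181d from the other miRNAs was 0.82 (95% interval -0.21 to 1.85, limma adjusted p = 0.755), and 0.61 (-0.09 to 1.31, limma adjusted p = 0.382) without that array. In the suppressed cells the PLAG1 signal was lower on the miR-181d arrays by -0.47 (95% interval -0.87 to -0.07), with an adjusted p of 0.187 in limma.

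Each channel of miR-181d was next set against that channel of the other miRNAs, which asks whether a target was low in the overexpressing cells or high in the suppressed cells. In the overexpressing cells, 0 of the 11 target probes and 0% of all probes were called in limma, with 1356 of all probes (4.33%) and none of the targets at an unadjusted p under 0.05. In the suppressed cells, 0 target probes were called lower, where 0.488% of all probes were, and 0 were called higher, where 0.756% were. NLK, PLAG1 and ATM A_23_P35916 had unadjusted p values under 0.05 there (0.0100, 0.0263 and 0.0319), where 20.9% of all probes did. For ATM the suppressed-cell signal was 0.49 higher (95% interval 0.05 to 0.94), at an adjusted p of 0.201 in limma. No target probe had overexpressing-cell signals wholly below those of the 12 other arrays, where 0.424% of all probes did. None had suppressed-cell signals wholly above or wholly below them, where 0.702% and 0.565% did.

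**Figure D4:**
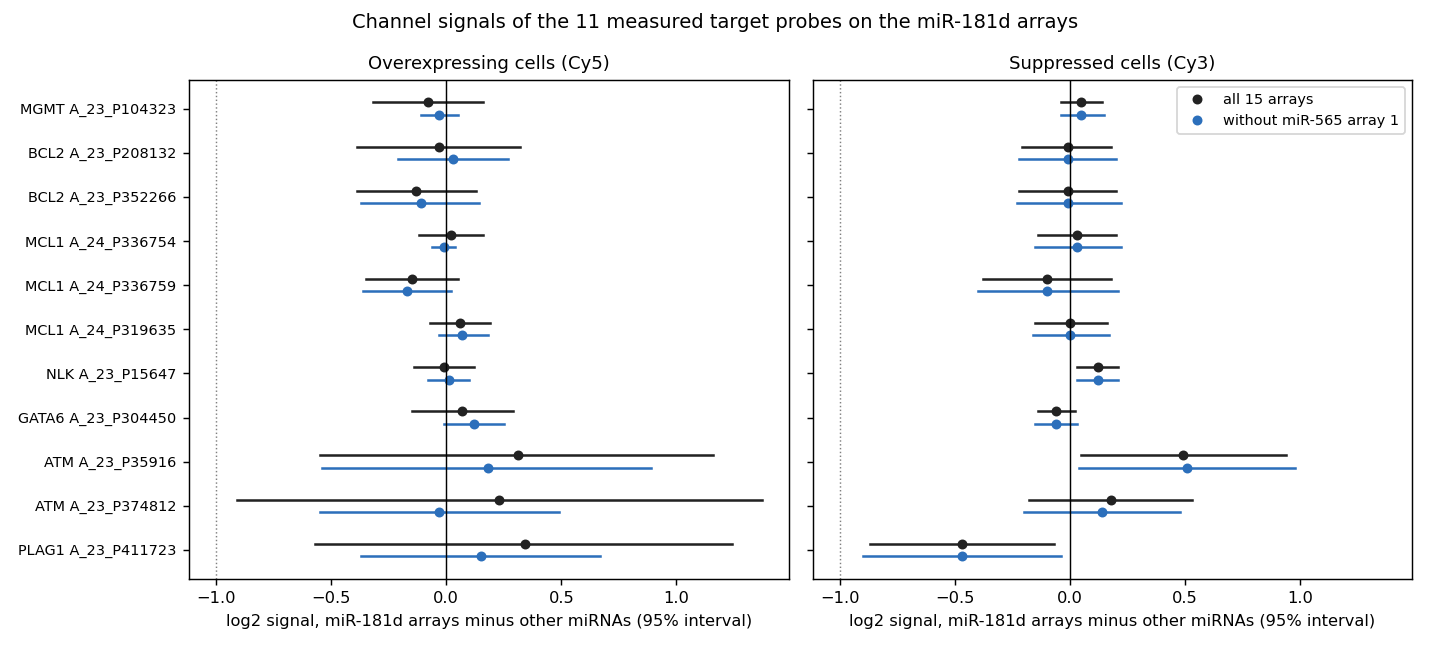
Log2 signal of the 11 measured target probes on the miR-181d arrays minus that on the arrays of the other 4 miRNAs, within each dye after quantile normalization, with 95% intervals from limma. The left panel shows overexpressing cells, the right panel suppressed cells, black all 15 arrays and blue the fit without miR-565 array 1. In the suppressed cells NLK and ATM A_23_P35916 lay above 0 and PLAG1 below it, and none passed the adjusted threshold.

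A block for the slide turned several of these values. The block rests on miR-565 array 1, since no other array of another miRNA shared the slide of miR-181d. On that slide alone, the mean miR-181d ratio minus that of miR-565 array 1 was -0.76 for MGMT, -0.34 for NLK and -0.54 for GATA6. It was -0.86 for BCL2 A_23_P208132, -0.25 for BCL2 A_23_P352266 and -0.06 for MCL1 A_24_P319635. For MCL1 A_24_P336754 (0.47), MCL1 A_24_P336759 (0.12) and ATM A_23_P35916 (1.29) it was above 0. Each value is against that single array. No value is given for PLAG1 or ATM A_23_P374812, whose overexpressing-cell signals there were not well above background. As a fixed block, without miR-766, the slide left neither GATA6 nor BCL2 A_23_P352266 called in the ratio. In that fit 3 target probes were lower, namely MGMT (-0.52, limma adjusted p = 0.000395), BCL2 A_23_P208132 (-0.55) and NLK (-0.23). Another 3 were higher, namely MCL1 A_24_P336754, ATM A_23_P374812 and PLAG1, and 48.3% of all probes were called in either direction. Without that array, slide and miR-181d cannot be told apart.

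Genes that work with the reported targets were called in small numbers, 1 or 2 per list, in the miR-181d ratio. They are to be read against the 2.81% of all tested probes called lower and the 3.52% called higher; the lists are so short that 1 call is already a larger share than either. Each gene was read by its brightest probe, and the lists were drawn up with earlier results of these data known. Of the BCL2 family, 13 of 15 genes were tested, and 1 was lower and 0 were higher in the miR-181d ratio. The lower one was BCL2L1, which encodes the inhibitor of apoptosis BCL-XL, with log2 ratios of -0.44, -0.47 and -0.47. Its fitted ratio was -0.46 (SE 0.11, limma adjusted p = 0.0237), and its difference from the other miRNAs was -0.29 (limma adjusted p = 0.673). The other 12 arrays had a mean of -0.17 (SD 0.21). The median ratio of the list was -0.05.
Of the DNA damage and repair genes around ATM and MGMT, all 19 were tested, and 1 was lower. It was H2AFX, whose histone is phosphorylated by ATM at breaks, with a ratio of -0.24 (SE 0.062, limma adjusted p = 0.0419). Its 12 other arrays had a mean of -0.16 (SD 0.10). The list had a median of 0.05.

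Of the TIMPs and the proteases they bind, 11 of 14 were tested, and 2 were higher. ADAM10, a sheddase of Notch and other surface proteins, had ratios of 0.65, 0.50 and 0.30 and a fitted ratio of 0.48 (SE 0.11, limma adjusted p = 0.0219), against a mean of 0.28 (SD 0.19) on the other arrays. ADAMTS4 was the second (limma adjusted p = 0.0193), but its suppressed-cell signal was not well above background on any miR-181d array and its overexpressing-cell signal was so on 1 of 3, so no fold is given. ADAMTS5, named after its values were seen, was lower in the suppressed cells of miR-181d (limma adjusted p = 0.00434). It was not well above background there either, and no fold is given.
Of the Wnt genes around NLK, 13 of 14 were tested, and 1 was higher. CTNNB1, the beta-catenin gene, had ratios of 0.84, 0.27 and 0.15 and a fitted ratio of 0.42 (SE 0.090, limma adjusted p = 0.0182). The other 12 arrays had a mean of 0.12 (SD 0.03), and the difference had an adjusted p of 0.666 in limma. GSK3B, also named after its values were seen, was 0.23 higher in the suppressed cells (SE 0.043, limma adjusted p = 0.0308).

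Of the GATA and PLAG factors and partners, 12 of 14 were tested, and 1 was higher. PLAGL2, a relative of PLAG1, had a ratio of 0.33 (SE 0.076, limma adjusted p = 0.0247), against a mean of 0.30 (SD 0.14) on the other arrays. Of 33 other reported targets of the miR-181 family, 25 were tested, and 0 were lower and 2 were higher, where 2.81% and 3.52% of all probes were. The small GTPase gene RALA had a fitted ratio of 0.24, and the receptor gene NOTCH2 had one of 0.26. The means on the other arrays were 0.10 for RALA and 0.27 for NOTCH2. The median ratio of this list was 0.09, that of its difference from the other miRNAs 0.05. No gene of the 6 lists was called in the difference from the other miRNAs, where 0% of all tested probes were.

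Probes that hold the pairing letters of the seed were looked at as a whole. TGAATGT was found in 366 of 41000 probes (0.893%) on the sense strand, and its reverse complement in 275 (0.671%). Of the 270 probes with TGAATGT that were tested, 5 (1.85%) were lower and 15 (5.56%) were higher in the miR-181d ratio, where 2.81% and 3.52% of all probes were. Their median was 0.092, against 0.012 for the rest. For the other miRNAs too, a larger share of these probes than of all probes was called higher, with 39 of miR-565 (14.4%, against 8.48% of all probes), 11 of miR-574-3p (4.07%, against 2.78%), 26 of miR-629* (9.63%, against 5.81%) and 7 of miR-766 (2.59%, against 1.53%). Lower calls numbered 6, 7, 7 and 0 in the same order. The other miRNAs had medians of 0.051 (miR-565), 0.065 (miR-574-3p), 0.107 (miR-629*) and 0.075 (miR-766) over the same probes. The difference of miR-181d from the other miRNAs had a median of 0.005 with the letters and -0.009 without. Base composition moved with the ratio too: probes of up to 35% GC had a median miR-181d ratio of 0.105 and those over 55% GC one of -0.091. On the other 12 arrays these medians were 0.081 and -0.02, and in the difference 0.025 and -0.086. BCL2 A_23_P352266 has 35% GC and GATA6 45%, while BCL2 A_23_P208132 has 56.7%. The part of base composition in the targets' ratios was not tested.

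The genes whose ratios were most like those of a target over the 15 arrays were listed among 19518 probes well above background on all arrays. Since miR-565 array 1 had large ratios for many probes, the correlation without it follows in each case, then the genes that ranked first without it, and these correlations are descriptions only. MGMT was most like STARD10 (r = 0.99, then 0.95) and MXD3 (0.98, then 0.94), also in the ranking without that array. BCL2 (A_23_P208132) was most like LCE1A (0.97, then 0.88) and MAFA (0.97, then 0.86), and without the array PPP2R5B (0.90) and LCE1A ranked first. MCL1 was most like CCDC47 (0.94, then 0.87) and EML4 (0.93, then 0.87). Without the array BRCC3 (0.91, against 0.92 over all 15) ranked first.
NLK was most like ZNF587 (0.93, then 0.90) and DOPEY2 (0.92, then 0.88), and without the array like ZNF587 and FAM29A (0.90, against -0.35 over all 15). GATA6 was most like C1orf75 (0.97, then 0.91) and CASP9 (0.96, then 0.89). Without the array NFYB (0.96) and KLHL12 (0.95) ranked first for GATA6, with correlations of -0.65 and -0.24 over all 15. ATM was most like ZNF514 (0.94, then 0.93) and CBWD3 (0.94, then 0.94), and without the array ZNF652 and GINS4 (both 0.98, against 0.79 and 0.52 over all 15) ranked first. The genes listed for BCL2, MCL1, NLK, GATA6 and ATM thus depended on that single array.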

How the data were processed

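A549 RNA from cells overexpressing a miRNA (Cy5) and from cells with its antagomir (Cy3) was hybridized to 15 Agilent G4112F arrays of 41000 probes. The authors deposited Feature Extraction 9.5.3.1 output for each array. The intensity values used are the deposited processed signals (background subtracted, detrended and LOWESS-normalized between dyes within the array by that software), and, for an alternative, the mean and local background signals before any normalization. The deposited series table holds log10 ratios of the same arrays with surrogates for dim signals. The study's own Rosetta Resolver results were not used here. Probe positions are those of NCBI36 as the files give them, and all 8 gene symbols were found in the RefSeq table. The mature miRNA sequences come from RefSeq on GRCh38.p14.

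Control spots (1639 per array) and outlier-flagged spots (2296 in all) were removed, and the 10 spots of 264 probes were averaged in R 4.3.3. No spot was saturated. Log2 ratios of the processed signals were fitted with 1 coefficient per miRNA by lmFit and trended eBayes of limma 3.58.1, mean intensity being the covariate of the trend. The miR-181d coefficient was tested against 0 and against the mean of the other 4. Each channel was compared between miRNAs after quantile normalization within the dye. Benjamini-Hochberg adjustment ran over the 31345 probes that rose well above background, in 1 channel or both, on 3 or more arrays, and a probe was called at an adjusted p under 0.05. The fit was tested on simulated ratios with known changes. Their noise was independent between arrays, with no slide effect and no array standing apart, so the simulation cannot speak to either of these. In the overexpressing channel 68.11% to 75.49% of probes were well above background. The number of arrays, 3 per miRNA, limits the precision.

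The genes named are the 8 targets with all their probes. From the other lists they are genes whose brightest probe had an adjusted p under 0.05 in the ratio or the difference, at most 6 per list, and for each target measured on all arrays the 2 genes of most similar ratio. The members and lists were chosen with earlier results of these data known. From these lists, 1 marker and 1 other reported target are not reported here, and the counts leave them out; 1 gene of similar ratio is also not reported here. Alternatives were normexp correction (offset 50), median centering, the series table, other filters on dim probes, fits without a trend or of 3 arrays, outlier spots kept, replicate number and slide as blocks, and fits without single arrays. Another compared miR-181d with miR-565 alone.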

Additional observations from a re-analysis of the deposited data

Results flagged for a closer look

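The log2 ratio of ADAMTS5, a protease inhibited by TIMP3, lay above 0 on all 3 miR-181d arrays (2.31, 0.56 and 0.69) and below 0 on all 3 miR-565 arrays (-2.39, -1.54 and -0.24), a difference of means of 2.58 on the log2 scale. This pair was not tested on its own, and against all other miRNAs the difference had an adjusted p of 0.666 in limma. The signals were near the floor. The overexpressing channel was well above background on 1 of the 3 miR-181d arrays and on none of the miR-565 arrays, and the suppressed channel on none of the miR-181d arrays and on 1 of the miR-565 arrays. The ratios therefore rest mostly on signals not well above background in both groups, the difference has no reliable size, and no fold is given.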

How the results depend on the processing

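Counts of called probes depended on the arrays and the fit. In the ratio, 880 probes were lower and 1102 higher. Lower counts were 1785 with normexp and loess, 1339 with only the 3 miR-181d arrays (1 higher target probe), and 5340 with no filter on dim probes, where 1 target probe, the dim ATM probe, was lower. Median centering gave 1922 higher, and no intensity trend gave 413 lower and 643 higher. Without miR-565 array 1 there were 3978 lower and 4757 higher, and leaving out 1 miR-181d array gave 66 to 234 lower, 107 to 333 higher and 0 to 1 higher target probes. Slide as a random block, chosen after seeing the data, gave 435 lower and 265 higher with 0 higher targets. In the difference it gave 2085 lower and 2969 higher, with 1 target lower (MGMT, -0.47) and 1 higher (PLAG1, 2.25). Without miR-565 array 1 the difference gave 95 lower and 48 higher.

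Slide as a fixed block, without miR-766, rests on miR-565 array 1. It gave 7995 lower and 7136 higher probes in the ratio (3 lower and 3 higher targets, GATA6 and BCL2 A_23_P352266 no longer among them), 9320 and 7396 in the difference (4 lower and 3 higher targets), 8621 and 6281 in the overexpressing channel (3 lower and 3 higher targets), and 1 and 0 in the suppressed channel. There it turned the ratio of BCL2 A_23_P208132 (-0.55), MCL1 A_24_P336754 (0.34), NLK (-0.23), ATM A_23_P374812 (1.56) and PLAG1 (2.05), and for GATA6 the difference (-0.46) and the overexpressing channel (-0.46). The cause was not tested.

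In the suppressed channel, 73 lower and 114 higher were called without miR-565 array 1, and 26 to 41 lower and 18 to 86 higher without 1 miR-181d array. The overexpressing channel gave 0 to 1 lower. Replicate numbers were not taken to pair the arrays: same-numbered arrays correlated at -0.51 to 0.57 (median 0.11, 16 of 30 pairs over 0.1), others at -0.61 to 0.52 (median -0.03, 20 of 60), and 5 of 15 arrays correlated best with their own number. With the replicate block, 353 probes were lower in the suppressed channel against 153 without it. It left 2 higher target probes in the ratio and changed no call of a target. Of the values for target probes not past the threshold, 15, 18, 11 and 9 changed sign in the ratio, the difference and the overexpressing and suppressed channels. TIMP3 and 1 ATM probe were limited by signals at background.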
